A study of Caenorhabditis elegans with 2 samples.

Results

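The 6 genes described here, dpy-2, dpy-3, dpy-7, dpy-8, dpy-9 and dpy-10, encode the collagens of the annular furrows of the Caenorhabditis elegans cuticle. They were taken as a named set, 6 of the 19973 protein-coding genes on the nuclear chromosomes in the Ensembl release 115 annotation of WBcel235 (the ce11 build). Every region of the deposited ce11 lists that overlapped a gene, or the 2 kb upstream of it, by at least 1 bp was collected and ranked by the authors' signal value within its list. The lists come from ChIP-seq of ELT-3, which sequences the DNA recovered with a chosen protein. The strain was OP75, with the genotype unc-119(ed3) III and the insertion wgIs75, which carries elt-3 fused to eGFP, so all chromatin came from animals with an added tagged copy of the gene. The labels name elt-3 as the antibody and elsewhere the eGFP fusion as the target, so whether native ELT-3 was recovered along with the tagged protein cannot be told from them. The material was whole embryos of mixed stage, with the sexes pooled and the age unknown, and 2 biological replicates form the 1 group. Hypodermal cells are only some of the cells of such embryos. With no second condition, nothing below is a contrast between conditions.

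Annular furrows are the circumferential grooves that run around the worm between the annuli of the cuticle. The furrow collagens are secreted by the hypodermis, the worm epidermis, and mutants that lack any of them lose the furrows and are short and fat, the dumpy phenotype that gives the genes their name. Loss of furrows is also known to switch on genes of osmotic, antimicrobial and detoxification responses in the epidermis. ELT-3 belongs to the GATA family of transcription factors and is made in hypodermal cells, and GATA factors bind short sequences built around the letters GATA.

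The reproducible list is the authors' list thresholded on the irreproducible discovery rate, a measure of rank agreement between replicates. Its regions were those of highest signal in the list of both replicates pooled. Membership thus follows the pooled rank and is not separate evidence of replicate agreement at a gene. A region of this list was present at 3 of the 6 genes, dpy-2, dpy-10 and dpy-3, against 3.55% of all protein-coding genes. These 3 genes stand at 2 places in the genome, because dpy-2 and dpy-10 are neighbours that point away from each other and share the same 2 regions. At dpy-7 and dpy-8 there were regions of lower rank only, in the pooled list and in both replicate lists. At dpy-9 a single region of low rank was listed, in replicate 2. The order of the genes, with dpy-2, dpy-10 and dpy-3 high, dpy-7 and dpy-8 lower and dpy-9 last, rests on few regions, and no test was made of it.

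The sequences around the summits of the 3 reproducible regions are shown because they differ in whether they hold a GATA sequence. Each is 101 bases of the WBcel235 RefSeq genome, centred on the summit and written on the strand of the named gene. The region nearest dpy-10 is at chrII:6712410-6712510 on the minus strand, that of dpy-2 at chrII:6714012-6714112 on the plus strand and that of dpy-3 at chrX:2145775-2145875 on the minus strand. Capitals in dpy-3 mark a GATA sequence, meaning the letters GATA with A or T before them and A or G after them, on either strand. Capitals in dpy-10 and dpy-2 mark 3 other words on either strand, of which the first is GAGAGA, another is CGTCTC and the last is ACGCAG, and the last of these overlaps its neighbour in dpy-10.
dpy-10: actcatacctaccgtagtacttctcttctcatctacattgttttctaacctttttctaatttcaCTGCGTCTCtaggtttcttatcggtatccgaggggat
dpy-2: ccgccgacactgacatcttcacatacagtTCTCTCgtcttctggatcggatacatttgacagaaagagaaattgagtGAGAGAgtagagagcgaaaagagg
dpy-3: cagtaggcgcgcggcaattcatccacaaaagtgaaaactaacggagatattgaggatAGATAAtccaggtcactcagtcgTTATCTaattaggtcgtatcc

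The lists differ in length, so a rank is given with its list. The reproducible list held 637 regions, which were the 637 of highest signal among the 12702 of the pooled list. The lists of replicate 1 and replicate 2 held 19168 and 26381 regions. Of the 637, 23 lay on the mitochondrial genome, and mitochondrial regions were kept in the ranks of every list. The scale of the signal is not stated and differs between lists, and read depth is unknown. The pooled and replicate lists were, per the labels, called at a relaxed threshold and hold background as well as peaks, so that 45.8% of all protein-coding genes had a pooled region in the same window and 48.3% had a region in both replicate lists. Each of these 2 counts was 5 of 6 for the furrow genes, all but dpy-9. By single replicate, 5 furrow genes had a region in replicate 1, against 59.5% of protein-coding genes, and 6 in replicate 2, against 70.3%. The windows of the furrow genes were not long, at 3043 to 4079 bp against a median of 4027 bp over all protein-coding genes.

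**Figure D1:**
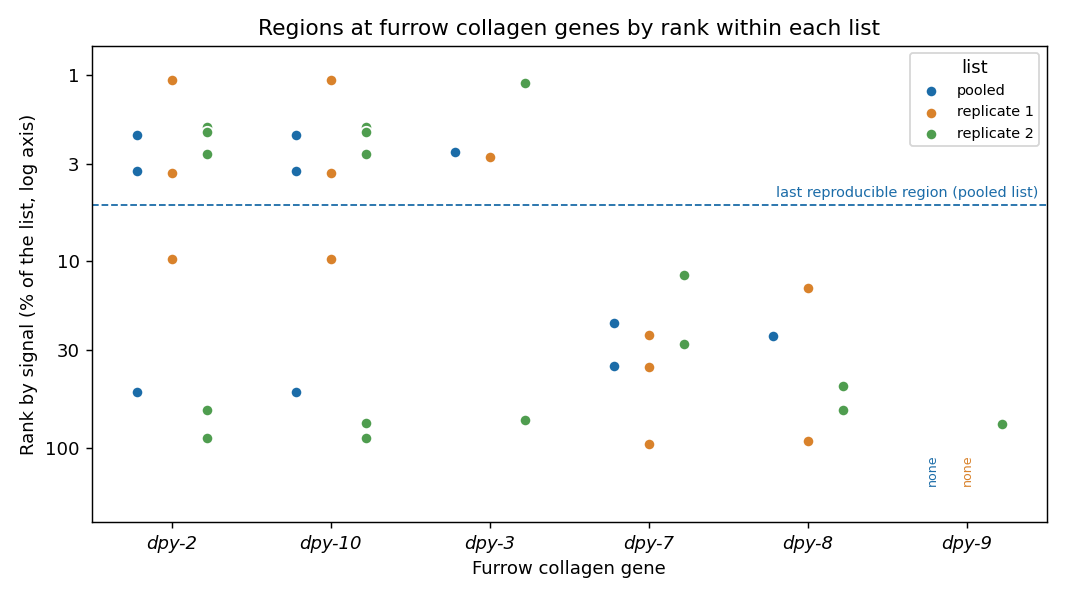
Rank of every region at each furrow gene as a percentage of its list (y axis, log scale, highest signal at the top), with 1 point per region and colours for the pooled, replicate 1 and replicate 2 lists. In each list the highest points of dpy-2, dpy-10 and dpy-3 lie above the dashed line, which marks the last of the 637 reproducible regions in the pooled list, while all points of dpy-7, dpy-8 and dpy-9 lie below it, and most regions of dpy-2 and dpy-10 are the same regions.

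The divergent pair dpy-10 and dpy-2 had the highest-ranked region of the set in the reproducible, pooled and replicate 1 lists, while in replicate 2 that of dpy-3 ranked higher. The gene dpy-10 (WBGene00001072, chromosome II, 6710149 to 6712227, minus strand) and dpy-2 (WBGene00001064, chromosome II, 6714292 to 6715971, plus strand) have 2064 bp between their annotated 5′ ends. The region nearer dpy-10 (6712270 to 6712649) had its summit 233 bp upstream of the dpy-10 5′ end and a signal of 57.6, rank 266 in the reproducible and pooled lists. The region nearer dpy-2 (6713872 to 6714251) had its summit 230 bp upstream of dpy-2, with a signal of 49.3 and rank 416. The summits were 1602 bp apart, each close to its own gene and far from the other. Since the window reaches 2 kb upstream, each gene was also assigned its partner's region, and with 1 kb upstream the best pooled rank of dpy-2 was 416 in place of 266, while that of dpy-10 remained 266. Only 0.205% of protein-coding genes had 2 or more reproducible regions in the window, and for dpy-2 and dpy-10 that is 1 shared observation.

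Both replicates listed these regions. In replicate 1 the region near dpy-10 had a signal of 38.5, rank 205 of 19168, with a summit 216 bp upstream. In replicate 2 the same stretch was split into 2 overlapping regions, 1 with a summit 371 bp upstream at rank 504 (signal 20.6) and 1 with a summit 145 bp upstream at rank 697 (signal 18.2). The pooled summit therefore lies between the replicate 2 summits, and its position is less certain than that of dpy-2. The region near dpy-2 had rank 641 in replicate 1 (signal 26.3, summit 249 bp upstream) and rank 537 in replicate 2 (signal 20.2, summit 232 bp upstream). Replicate summits were 17 bp apart at dpy-2 and 71 bp apart at dpy-10, where the nearer replicate 2 summit was used, against a median of 24 bp over the 603 reproducible regions that had replicate summits no more than 100 bp from the pooled one.

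Between these regions lay a weaker one. It stood at rank 6381 in the pooled list (6712885 to 6713264, signal 18, −log10 q of 0.17, where the highest value in that list is 3.03), with its summit 848 bp upstream of dpy-10 and 1217 bp upstream of dpy-2. It ranked 1868 in replicate 1, and the nearest replicate 2 region, with a summit 172 bp from that of replicate 1, ranked 23265, so the replicates did not place it alike.

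The annotation of this stretch holds more than the collagen genes. The summit near dpy-10 is in an intron of T14B4.19, a protein-coding gene on the same strand that overlaps dpy-10 and begins upstream of it (6711011 to 6712931), and the summit near dpy-2 is in the exon of the non-coding RNA gene T14B4.13 (6714025 to 6714134). By distance to the nearest protein-coding 5′ end, the reproducible regions belonged to dpy-10 and dpy-2, but the weaker pooled region between them and the replicate 2 region at rank 504 were nearer T14B4.19. To which of these genes a region relates cannot be told apart from position alone. Replicate 2 also listed a region inside dpy-10, at rank 19285. A further replicate 2 region counted for dpy-2 at rank 16496 only touched the end of the gene, overlapped the snRNA gene T14B4.10, and was nearer the 5′ end of T14B4.5.

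**Figure D2:**
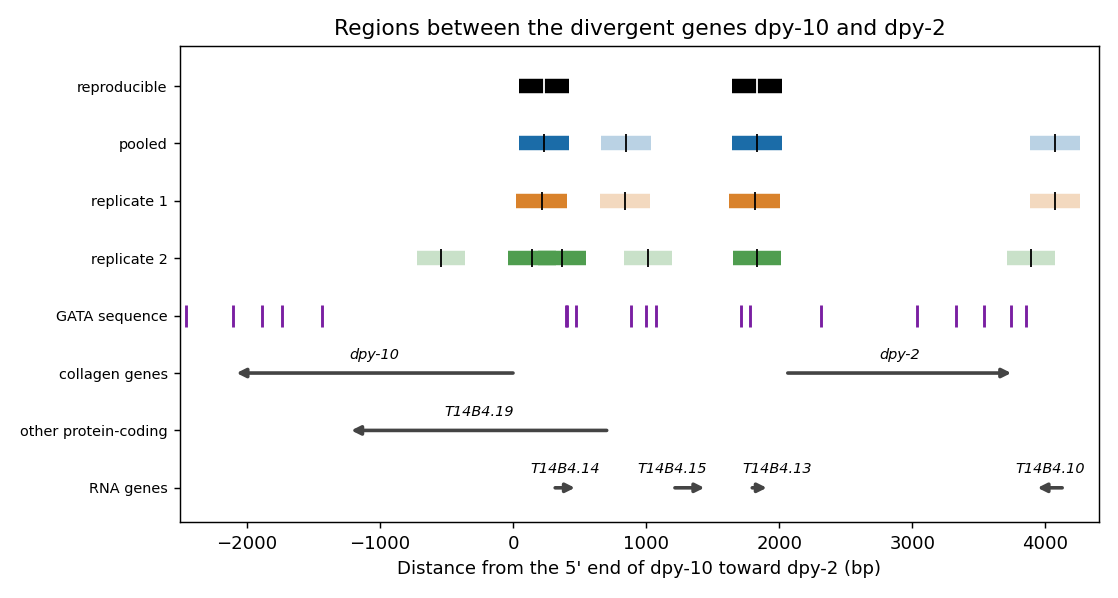
Map of the stretch from dpy-10 to dpy-2, with the distance from the dpy-10 5′ end on the x axis, regions of the 4 lists as bars with a tick at the summit (dark for the reproducible list and for ranks in the first 5% of a list, pale otherwise), GATA sequences as purple ticks and genes as arrows. Dark bars stand next to each gene, the bar of replicate 2 near dpy-10 being 2 overlapping regions. The weaker middle region has its summit in a different place in each replicate, though its bars overlap.

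The gene dpy-3 (WBGene00001065, chromosome X, 2144605 to 2145647, minus strand) had 1 reproducible region (2145635 to 2146014), with a signal of 53.4 and rank 329. Its summit lay 178 bp upstream of the 5′ end in intergenic sequence, and no other protein-coding gene had this region in its window. In replicate 1 the region had rank 526 with a signal of 28.1, and in replicate 2 rank 290 with a signal of 24.8. Replicate summits were 9 bp apart. The gene had no other region in the pooled or replicate 1 lists, and 1 at rank 18681 in replicate 2, whose summit was 1203 bp upstream. Among the 7 pooled regions at furrow genes, that of dpy-3 had the closest replicate summits.

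The gene dpy-7 (WBGene00001069, chromosome X, 7536467 to 7537792, minus strand), whose upstream sequence is widely used to drive transgenes in the hypodermis, had no reproducible region. It had 2 pooled regions, with signals of 24.3 (rank 2729) and 20.1 (rank 4607), where the lowest reproducible signal was 42.0. The higher of them had its summit 258 bp downstream of the 5′ end, in the intron of dpy-7. The lower was 246 bp upstream, and because only 16 bp separate dpy-7 from the end of glb-16, that summit lay in the 3′ UTR of glb-16, a neighbour on the same strand. Both were seen in each replicate at similar positions. The intronic region ranked 4745 in replicate 1 and 3136 in replicate 2 with summits 24 bp apart, and the upstream region ranked 7069 and 7282 with summits 22 bp apart. The −log10 q of the intronic region was 0.58 in the pooled list, 0.32 in replicate 1 and 0.92 in replicate 2, so the evidence per region was weak in every list although the positions were close. Another region at rank 18279, in glb-16, was listed in replicate 1 only.

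The gene dpy-8 (WBGene00001070, chromosome X, 5148804 to 5150476, minus strand) had 1 pooled region (5150579 to 5150958, signal 22.9, rank 3188), with an intergenic summit 293 bp upstream. The replicates differed here. In replicate 1 the region ranked 2651 (signal 16.8, 13.8% down its list), with a summit 278 bp upstream. In replicate 2 the nearest region ranked 16571 (signal 5.47, 62.8% down its list), with a summit 152 bp upstream and 126 bp from that of replicate 1. The best replicate 2 region of dpy-8, at rank 12228, was at the other end of the gene, in the 3′ UTR it shares with the overlapping gene C31H2.14. The upstream region of dpy-8 thus rests mainly on replicate 1.

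The gene dpy-9 (WBGene00001071, chromosome IV, 257403 to 259204, minus strand) had no region in the reproducible, pooled or replicate 1 lists. Its single region in replicate 2 had a signal of 5.02 and rank 19548 of 26381, with a summit 789 bp upstream, inside the 3′ UTR of the neighbour pqbp-1.1. The nearest pooled summit lay outside the window, 2629 bp upstream at rank 1214 (261643 to 262022), and was nearest the 5′ end of pqbp-1.1. Since depth is unknown, it cannot be said whether weaker binding at dpy-9 would have been listed.

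**Figure D3:**
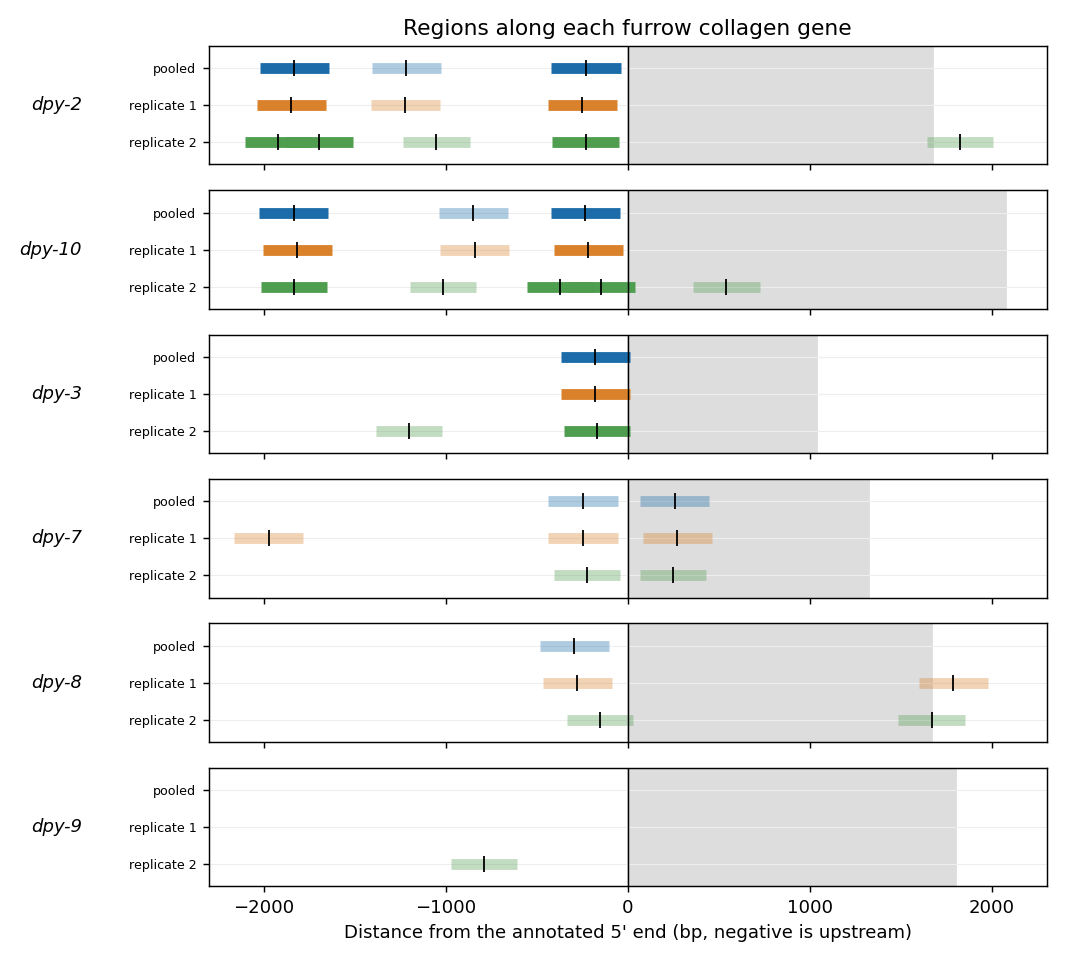
Position of every region along the 6 furrow genes, drawn from the annotated 5′ end (x axis in bp, negative upstream, gene body in grey), with 1 row per list and a tick at each summit. Bars are dark where the region ranks in the first 5% of its list. Dark bars occur only at dpy-2, dpy-10 and dpy-3, and the pooled summits nearest the 5′ ends of dpy-2, dpy-10, dpy-3, dpy-7 and dpy-8 all lie 178 to 293 bp away.

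The pooled summits nearest the 5′ ends were at similar distances whatever their rank, 178 bp at dpy-3, 230 bp at dpy-2, 233 bp at dpy-10, 246 bp at dpy-7 and 293 bp at dpy-8, all upstream. For dpy-7 this is the lower-ranked of its regions. Annotated 5′ ends of trans-spliced worm genes can lie downstream of the start of transcription, so these distances are to the annotation and not to a measured start.

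The best rank of each furrow gene can also be given as the share of protein-coding genes with a region at least as high, which follows the rank by construction. A pooled region of rank 266 or higher was present at 1.40% of protein-coding genes, the place of dpy-2 and dpy-10, and 1.75% had one at least as high as that of dpy-3. For dpy-7 the share was 14% and for dpy-8 16.0%. In replicate 1 the shares were 1.03% for dpy-2 and dpy-10, 2.82% for dpy-3, 22.3% for dpy-7 and 13.5% for dpy-8. In replicate 2 they were 2.91% for dpy-2 and dpy-10, 1.55% for dpy-3, 16.0% for dpy-7, 45.5% for dpy-8 and 60.3% for dpy-9. For dpy-2 all these shares come from the region near dpy-10, in replicate 2 the one at rank 504, whose summit is nearer T14B4.19. With the region near dpy-2 itself, the pooled share would lie between 2.02% and 2.40%. The same share would lie between 3.08% and 3.68% in replicate 1 and between 2.89% and 3.36% in replicate 2. For dpy-10 the nearest replicate 2 region, at rank 697, would give a share between 3.36% and 4.03%. The order of dpy-3 against dpy-10, and of dpy-7 against dpy-8, was reversed between replicates, so neither pair can be put in order. By its own region dpy-2, at ranks 416 pooled, 641 in replicate 1 and 537 in replicate 2, stood below dpy-3 in every list. The genes dpy-2, dpy-10 and dpy-3 stood above dpy-7 and dpy-8 in each list. A region among the 637 highest of each replicate list was present at dpy-2, dpy-10 and dpy-3, against 1.96% of protein-coding genes. However, dpy-2 counts here through the region near dpy-10, its own region being at rank 641 in replicate 1. In replicate 2 the region nearest dpy-10 was at rank 697. There dpy-10 counts through the region at rank 504, nearer T14B4.19, and that near dpy-2 at rank 537. Only dpy-3 passed in both replicates by the region nearest its own 5′ end. Over all 6 genes the median best pooled rank was 1529, counting dpy-9 after the last region and rank 266 for both dpy-2 and dpy-10. Only 45.8% of all protein-coding genes had any pooled region, so their median counted likewise falls after the last region. Among the genes with a pooled region it was 4913.5.

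**Figure D4:**
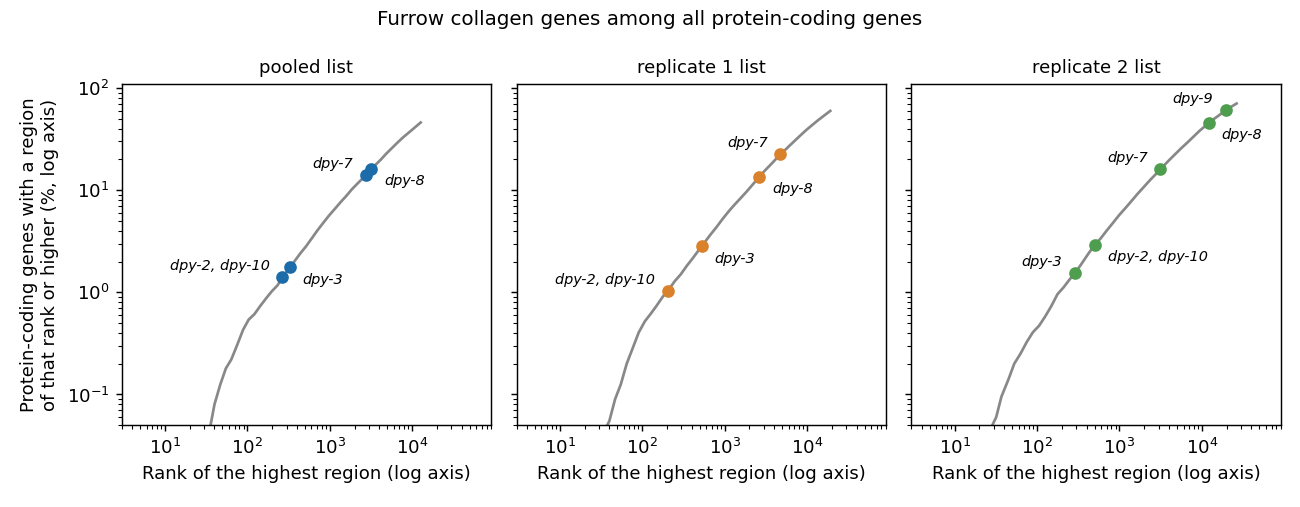
Share of protein-coding genes whose highest region has a given rank or a higher one (grey line, both axes log) in the pooled, replicate 1 and replicate 2 lists, with the furrow genes marked. The points of dpy-2, dpy-10 and dpy-3 lie at 1.03% to 2.91% in all 3 panels. That of dpy-2 and dpy-10 is shared and stands for the region near dpy-10, in replicate 2 the one at rank 504, whose summit is nearer T14B4.19. The point of dpy-8 lies at 13.5% in replicate 1 and 45.5% in replicate 2, and dpy-9 appears in replicate 2 only.

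The GATA sequence was present at the summit of 1 of the 3 reproducible regions. Within 50 bp of the summit, dpy-3 held 2 copies of AGATAA, on opposite strands with centres 9 bp and 32 bp from the summit, and another copy lay 62 bp away. Of all reproducible regions 38.0% held a GATA sequence within 50 bp of the summit, and of the 12065 pooled regions outside that list 24.0% did. At dpy-2 the nearest copy, AGATAA, was 53 bp from the pooled summit and 51 bp from that of replicate 2, just outside this limit, and 34 bp from that of replicate 1, inside it. At dpy-10 the pooled region held TGATAA 163 bp and 171 bp from its summit. Within whole regions, 3 of 3 held a GATA sequence, against 68.6% of reproducible regions and 62.2% of pooled ones.

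The pair near dpy-10 is shown because it lay under a summit in replicate 2 alone. The copies begin 8 bp apart at chrII:6712610-6712643, written here on the minus strand with the GATA sequences in capitals, and lie 396 and 404 bp upstream of the dpy-10 5′ end. They were 25 bp and 33 bp from the replicate 2 summit at rank 504, whereas the replicate 1 summit was 180 bp from the nearer copy.
dpy-10 pair: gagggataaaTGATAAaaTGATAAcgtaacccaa

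Among the weaker regions, the upstream region of dpy-7 held AGATAA 5 bp from its summit, in both the pooled and replicate 1 lists, and 27 bp from the summit in replicate 2. This site, at chrX:7538030-7538055, is shown on the minus strand for comparison with dpy-3, with the reverse complement of AGATAA in capitals.
dpy-7 site: gaatcttttcTTATCTccgataattg
The higher-ranked intronic region of dpy-7 held none near its summit, its nearest being TGATAG at 166 bp. The pooled region of dpy-8 held none over its whole 380 bp. A match is a string of letters and not a measured site, and the letters GATA in another setting, as in the dpy-7 site after the capitals, were not counted.

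**Figure D5:**
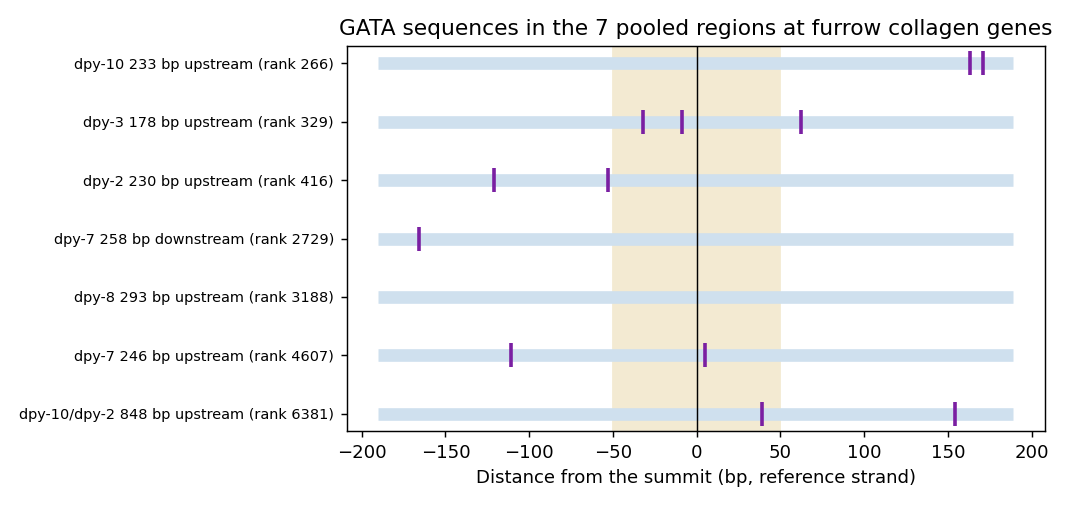
Positions of GATA sequences (purple ticks, either strand) in the 7 pooled regions at furrow genes, as the distance of the word's middle from the summit in bp on the reference strand, with regions ordered by pooled rank and the 50 bp on either side of the summit shaded. Ticks fall in the shaded band at dpy-3, at the region 246 bp upstream of dpy-7 and at the middle region between dpy-10 and dpy-2, and none is present in the dpy-8 region.

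The reproducible summits of dpy-10 and dpy-2, which had no GATA sequence, held other words that are frequent at reproducible summits. These words (GAGAGA among them) had been picked from these same lists, which include the furrow regions, so their presence here is a description. The dpy-10 summit held CGTCTC in 1 place, overlapped there by ACGCAG on the other strand, and the dpy-2 summit held GAGAGA in 2 places, on opposite strands. The summits of dpy-3, dpy-7 and dpy-8 held none of them. Within 50 bp of the summit GAGAGA was in 26.5% of reproducible regions against 12.4% of other pooled regions, CGTCTC in 19.3% against 5.97% and ACGCAG in 16.2% against 4.68%. Base composition of these 101 bases also differed among the furrow regions, with G and C making up 39.6% at dpy-10, 45.5% at dpy-2 and 43.6% at dpy-3, and among the weaker pooled regions 38.6% in the middle region between dpy-10 and dpy-2, 36.6% upstream of dpy-7, 27.7% at the dpy-7 intron and 25.7% at dpy-8. The median over nuclear reproducible summits was 44.6%.

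Counted over gene windows instead of regions, GATA sequences near the 5′ end did not follow the ranks closely. Their density over whole windows did follow the groups of genes by rank. In the 300 bp upstream of the 5′ end, dpy-3 had 3, dpy-7 had 2, dpy-2 and dpy-9 had 1 each, and dpy-8 and dpy-10 had 0. At least 1 was present at 54.9% of all protein-coding genes and 2 or more at 22.3%. Over whole windows the density was 3.61 per kb at dpy-3, 3.26 at dpy-2 and 2.70 at dpy-10. It was 2.45 at dpy-8, 1.80 at dpy-7 and 1.05 at dpy-9, against a median of 2.39 over all protein-coding genes. The windows of dpy-2 and dpy-10 overlap, and no test was made of this order.

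Other genes around cuticle collagens were counted in the same window of the reproducible list, where 3.55% of all protein-coding genes had a region. Of 14 collagen genes that shape the body without being furrow collagens, 2 had one, dpy-14 (rank 12) and dpy-17 (rank 183). Of 11 genes that process or cross-link collagen, 1 had one, the procollagen protease gene dpy-31 (rank 484), with a summit 514 bp upstream. By rank over the pooled and both replicate lists, the body-shape collagen gene nearest dpy-3, and the shared ranks of dpy-2 and dpy-10, was dpy-17. It was 1 of 7 with a region in all 3 lists. Apart from dpy-14 and dpy-17, these ranked 2710 or lower in the pooled list, so few could have been near. The distance of dpy-17 on the log10 rank scale was 0.53 from dpy-2 and dpy-10 and 1.00 from dpy-3. Its ranks were 183 pooled, 64 in replicate 1 and 582 in replicate 2.

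Genes that respond to furrow damage were counted likewise, beside the same 3.55% of all protein-coding genes. Of 14 such targets 4 had a reproducible region, of which the antimicrobial peptide genes nlp-30, nlp-31 and nlp-34 shared 1 at rank 45. Its summit lay 24 bp upstream of nlp-31, but 897 bp upstream of nlp-34 and 1949 bp upstream of nlp-30. The remaining target was gpdh-1, which encodes a glycerol-3-phosphate dehydrogenase, at rank 235 with a summit 146 bp upstream. Of 13 genes that regulate such responses 4 had one. These were elt-3 itself (rank 132), where an added copy in the strain cannot be told apart from the native gene, the Tribbles kinase gene nipi-3 (rank 77), the adaptor gene tir-1 (rank 204) and the transcription factor gene skn-1 (rank 530). In elt-3, tir-1 and skn-1 the summits of the highest-ranked regions lay in introns, while that of nipi-3 was 288 bp upstream of the 5′ end. The gene elt-3 had 2 reproducible regions, of which only the higher is described here. Long genes have long windows, and with the window narrowed to 1 kb upstream and 500 bp downstream of the 5′ end 1 of the 13 had a region, while for the furrow genes the count was 3 of 6, against 2.03% of protein-coding genes with that window.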

How the data were processed

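ELT-3 ChIP-seq regions were deposited by the authors as lists per replicate, for both replicates pooled, and as a list thresholded on the irreproducible discovery rate, per the labels' listing of each library's files. In each, the authors' signal is a score with no stated scale, and the deposited −log10 q-value column was used only to describe regions. The sources used here do not name the aligner, the peak caller or the thresholds. The ce10 lists and the control were not analysed here. All region ends fell within the WBcel235 chromosomes. Regions were ranked by signal within a list and assigned to genes by overlap of at least 1 bp with the window from 2 kb upstream to the gene end. GATA sequences were searched on both strands of the RefSeq WBcel235 genome. Assignment was checked on simulated regions. Python 3.11.15, numpy 2.4.6 and pandas 2.3.3 were used.

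The furrow genes and all gene lists were chosen with earlier results of these data known, so counts are descriptions, set beside the share of all protein-coding genes, with no test. All furrow genes are named, and at most 4 genes with a reproducible region per other list. The pooled lists give no spread, so ranks of the furrow genes are also given per replicate, whereas word counts and base composition are for pooled summits, and ranks of other genes, except those of dpy-17, are from the reproducible list. Alternatives covered the window, the assignment rule, a stricter list, each replicate alone and the GATA search.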

Additional observations from a re-analysis of the deposited data

How the results depend on the processing

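The count of furrow genes with a reproducible region was 3 with 1 kb upstream (2.9% of all protein-coding genes), around the 5′ end (2.03%), by summit (3.22%) and by nearest 5′ end (2.18%). It was 2 among the 318 highest reproducible regions (1.7%), where dpy-3, at rank 329, and the region near dpy-2, at rank 416, drop out, and dpy-2 and dpy-10 count through the 1 region near dpy-10. It was 3 with either replicate left out, taking the 637 highest regions of the other, and the genes were dpy-2, dpy-3 and dpy-10 each time, against 3.65% of all genes without replicate 1 and 3.45% without replicate 2. Without replicate 2, dpy-2 counted only through the region near dpy-10, its own being at rank 641. Without replicate 1, the region nearest dpy-10 was at rank 697, outside the 637. There dpy-10 counted through the region at rank 504, nearer T14B4.19, and that near dpy-2 at rank 537. Counts of 5 for pooled regions and for both replicates held under every window and assignment rule. With the main window 45.8% and 48.3% of all protein-coding genes had such regions. These shares were not computed under the other settings, so the steady counts cannot be set beside them. Reproducible regions with a GATA sequence numbered 1 of 3 within 50 bp of the summit (38.0% of all reproducible regions), 2 within 100 bp (52.7%), 3 over whole regions (68.6%) and 0 for TGATAA alone within 50 bp (23.9%), so that result depends on the search. Collagen processing genes numbered 0 among those 318 regions and 0 to 1 with either replicate left out. With the nearest 5′ end only, 2 response targets and 2 response regulators had a region, and with the window around the 5′ end 1 response regulator did. Under the other settings the counts were 3 to 4 for response targets and 3 to 5 for response regulators. The best rank of dpy-2 with 1 kb upstream was 416 in the reproducible and pooled lists, 641 in replicate 1 and 537 in replicate 2. With unknown depth, no limit can be set on binding at genes absent from a list.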
